A study of Mus musculus with 7 samples.

Results

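The antioxidant, glutathione and detoxification genes were 46 genes named in a fixed list of pathway members, a rule that uses no signal of these arrays, although earlier results of the data were known when it was written. The deposited annotation named a probe for 42 of them, 58 probes in all, among 14739 named genes and 23978 probes. Of the 42 genes, 38 were tested, and all 38 were above background on each of the 7 arrays. No signal of Prdx5, Prdx6, G6pdx or Pgd was analysed here.

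The tumours were J558 myelomas, which grow from a mouse plasma cell tumour line, injected under the skin of the neck of BALB/c mice. The control mice drank distilled water and the treated mice drank oil palm phenolics (OPP), a water-soluble mixture recovered from palm oil milling, at 1500 ppm of gallic acid equivalents. The labels give an age of 10 weeks and a time of 4 weeks after inoculation for both groups. Tumour RNA from 4 control and 3 OPP samples was hybridised to 1 array each, outlier samples having been removed by the authors before deposit. The tumours came from a single cell line, grew at a single site and held host cells beside the tumour cells, so a signal belongs to the whole tissue. Nothing in the sources ties a sample to a mouse, and the p-values therefore measure the spread between these samples, which may be technical.

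Cells answer oxidants and electrophiles mainly through Nrf2, the transcription factor encoded by Nfe2l2. Keap1 holds Nrf2 in the cytoplasm and passes it on for degradation. When reactive compounds modify Keap1, Nrf2 builds up, pairs with a small Maf protein and binds antioxidant response elements near genes for glutathione synthesis, thioredoxin reduction, quinone and haem breakdown, iron storage, conjugation and NADPH supply. Plant phenolics that form quinones are known to act on Keap1. Plasma cells carry a further load, because the disulphide bonds of secreted antibody are made with the release of hydrogen peroxide.

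The question was whether these genes differed between tumours of OPP-treated and control mice. None of the 38 tested genes did so at an unadjusted p under 0.05 in limma, where 9.36% of all 10371 tested probes passed that threshold, 5.81% higher and 3.55% lower in the OPP group. After Benjamini-Hochberg adjustment over all probes, 0 of the 38 genes and 0 of all probes passed 0.05, the smallest adjusted p from limma being 0.536 among the genes and 0.11 among all probes. The OPP mean was above the control mean for 20 genes and below it for 18, beside 51.7% and 48.3% of all probes. The median log2 change, OPP minus control, was 0.01 over the 38 genes and 0.01 over all probes. The fold changes of the brightest probes, OPP over control, ran from 0.691 for Mgst3, a membrane-bound glutathione transferase and peroxidase, to 1.17 for Hmox1, the inducible haem oxygenase.

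A p-value that misses the threshold does not show that the groups were alike, so the width of each estimate matters. The 95% confidence interval of the log2 change had a median half-width of 0.364, from 0.193 to 0.931 across genes. For 34 of the 38 genes it lay wholly within a 2-fold difference in either direction, and for 21 of them within a 1.5-fold difference. It reached 2-fold for Gstm1, Mgst1, Mgst3 and Mt2. The genes varied somewhat more across the 7 arrays than did other probes, with a median SD of log2 signal of 0.225 beside 0.197.

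**Figure D1:**
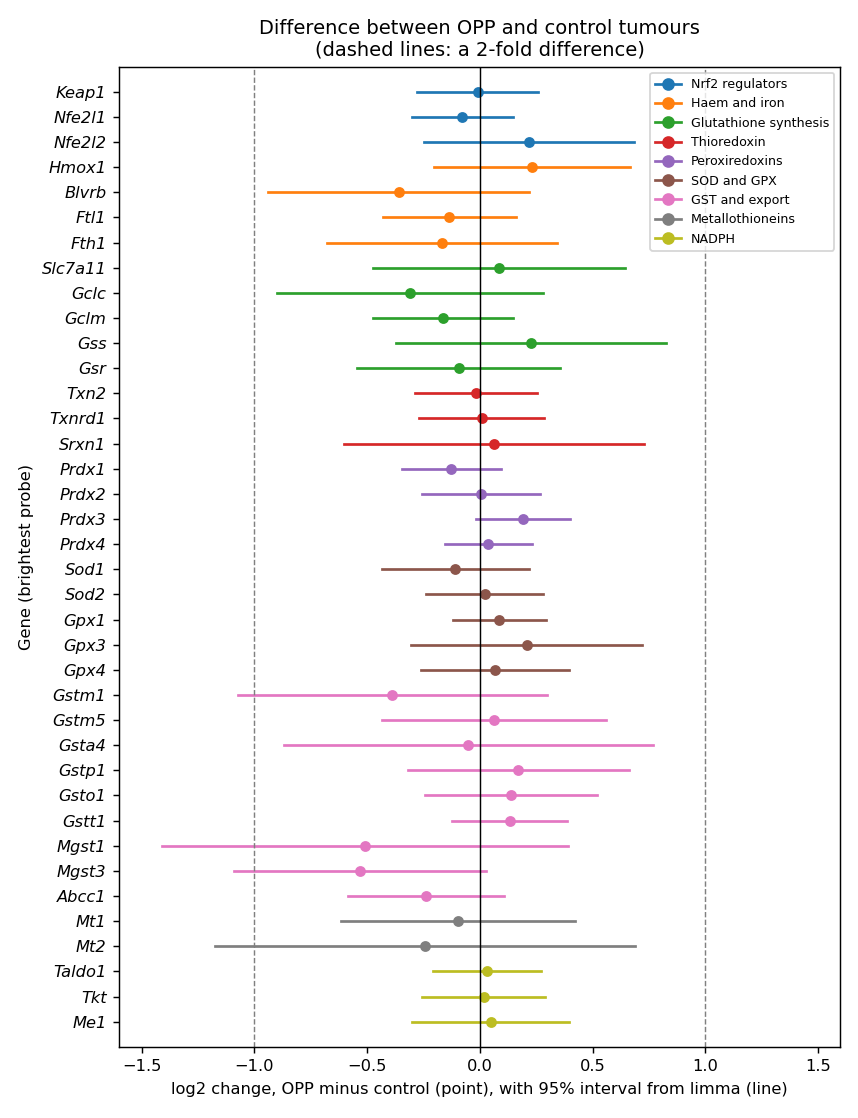
Log2 change of each tested gene, OPP minus control, with its 95% confidence interval from limma, grouped by role; each point is the brightest probe of the gene over 4 control and 3 OPP arrays. The intervals of all 38 genes include 0, and the points run from −0.53 (Mgst3) to 0.23 (Hmox1).

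The groups did not overlap for 1 of the 38 genes, Prdx3, or 2.63%, where 9.7% of all tested probes did not overlap, 5.91% higher and 3.79% lower. Prdx3 is the peroxiredoxin of the mitochondrial matrix, which reduces hydrogen peroxide. Its signal was 1547, 1489, 1454 and 1455 on the control arrays and 1577, 1812 and 1712 on the OPP arrays, each group in order of replicate number, as are all signals given for single arrays. Every OPP array was above every control array, although OPP replicate 1 exceeded control replicate 1 by little. The mean was 1486 ± 43.8 (SD, n = 4) in the control group and 1700.2 ± 118 (SD, n = 3) in the OPP group, a log2 change of 0.19 with a standard error of 0.09. This was a fold change of 1.14, with an adjusted p from limma of 0.541 and a two-sided exact permutation p of 0.0571, the smallest that the 35 splits of the arrays allow. With each array left out in turn the log2 change ran from 0.145 without OPP replicate 2, at an unadjusted p from limma of 0.204, to 0.245 without OPP replicate 1, at 0.0409. When the arrays were scaled to a common median the groups overlapped for this gene too, and 0 of the 38 genes were then without overlap.

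The tissue was checked against markers of cells it could hold. Of 9 tested plasma cell markers, 8 were above background on every array, and Mzb1 was 9 on OPP replicate 3, not above it. The summed signal of the markers, most of it from Xbp1 and Pou2af1, was 43282 to 49612 in the control group and 45166 to 49214 in the OPP group. Of 12 tested skeletal muscle markers, 12 were lower in the OPP group at an unadjusted p under 0.05 in limma, with no overlap. Over all tested probes, 3.55% were lower at that threshold and 3.79% were lower without overlap. Of the 12 genes, 10 entered the test only through the control group, where they were high. They were above background on 0 to 2 of the 3 OPP arrays, where values under 10 had been set to 10. The size of their difference is therefore not given, and their count was partly set by the way they entered. The summed signal of the 12 was 7250 to 32096 in the control group and 79 to 5224 in the OPP group. Adipocyte markers summed to 954 to 3410 and 774 to 1094, with 4 of 4 tested genes lower on average. Of these, 2 had an unadjusted p under 0.05 in limma, where 3.55% of all probes were lower at that threshold. T and NK cell markers summed to 112 to 1760 in the control group and 15 to 909 in the OPP group, and all 4 tested genes entered through the control group, with 0 at an unadjusted p under 0.05 in limma. Macrophage markers summed to 5210 to 11442 in the control group and 6102 to 8838 in the OPP group, with 0 of 7 tested genes at an unadjusted p under 0.05 in limma and with Msr1 and Marco not above background on any array. Fibroblast and matrix markers summed to 4575 to 6994 in the control group and 4125 to 5204 in the OPP group. Of 8 tested genes, only Dpt, which was lower, had an unadjusted p under 0.05 in limma. Epidermis markers, none of them tested, summed to 2007 on control replicate 4 and to 1934 on OPP replicate 2. On the other arrays they summed to 14 to 31. Neutrophil markers, also not tested, summed to 102 to 1242 in the control group and 65 to 239 in the OPP group. The sums were 1737 to 2535 and 2099 to 2510 for endothelium, and 2252 to 8400 and 2620 to 10100 for red cells. Neither list had a tested gene past that threshold. Whether there were fewer cells of a type or less RNA per cell cannot be told apart in these bulk samples. Over all tested probes the median absolute deviation from the median of the arrays was widest on OPP replicate 3, at 0.152 on the log2 scale, the other 6 arrays having 0.0984 to 0.123.

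Among the regulators, Nrf2, Keap1 and the related factor Nfe2l1 had 0 of 3 genes at an unadjusted p under 0.05 in limma. The signal of Nfe2l2 was 74.3, 82.3, 96.5 and 93.7 in the control group and 101, 74.7 and 133 in the OPP group. OPP replicate 3 was the highest of the 7 arrays, and OPP replicate 2 was level with the lowest control. This gave a log2 change of 0.22 ± 0.20 (SE), with an adjusted p from limma of 0.753 and an exact permutation p of 0.4. It was 0.01 without OPP replicate 3 and 0.43 without OPP replicate 2, the latter at an unadjusted p from limma of 0.0425.

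Keap1, the sensor that keeps Nrf2 low, gave a signal of 668, 839, 746 and 820.4 in the control group and 814, 776 and 696 in the OPP group. The groups covered much the same range, with the lowest signal on control replicate 1. Its log2 change was −0.01, with an adjusted p of 0.984 from limma, and the other two probes of the gene gave 0.04 and −0.04. Nfe2l1, which governs proteasome and basal antioxidant genes, lay between 1431 and 1705 in the control group and between 1411 and 1488 in the OPP group.

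Promoter sequence was examined because the list was drawn up around the Nrf2 pathway. The antioxidant response element core was searched as TGACNNNGC on both strands in RefSeq promoter windows of 300 bases, 250 before and 50 after the start of the gene, on build GRCm38.p6. RefSeq windows were matched by symbol for 39 of the 46 genes. A match stood in the window of 12 of these genes, G6pdx and Pgd among them, or 30.8%, beside 14% of all 27025 genes with a window, and in 22.2% of their windows beside 12.4% of all windows. The form TGACTCAGC also contains the letters of an AP-1 site, TGACTCA, so that these matches overlap another motif. The sequences around the match in the 10 tested genes are shown to let the forms be compared, 5′ to 3′ on the strand of the gene, with the match in capitals and up to 20 bases on either side.
Nfe2l2 (chr2:75704875-75704913, minus strand): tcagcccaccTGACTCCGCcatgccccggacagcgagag
Gclm (chr3:122245403-122245451, plus strand): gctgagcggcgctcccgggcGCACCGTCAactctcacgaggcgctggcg
Txnrd1 (chr10:82859094-82859142, plus strand): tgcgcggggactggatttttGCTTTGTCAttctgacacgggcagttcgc
Srxn1 (chr2:152105532-152105573, plus strand): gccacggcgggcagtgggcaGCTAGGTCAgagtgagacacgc
Prdx1 (chr4:116685446-116685494, plus strand): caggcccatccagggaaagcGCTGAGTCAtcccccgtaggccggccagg
Sod1 (chr16:90220686-90220734, plus strand): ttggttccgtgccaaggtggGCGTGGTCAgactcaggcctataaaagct
Gstm5 (chr3:107895792-107895840, plus strand): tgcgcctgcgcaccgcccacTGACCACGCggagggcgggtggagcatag
Mgst1 (chr6:138140451-138140499, plus strand): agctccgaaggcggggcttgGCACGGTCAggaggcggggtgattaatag
Mt2 (chr8:94172519-94172567, plus strand): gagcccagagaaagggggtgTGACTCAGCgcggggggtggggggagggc
Me1 (chr9:86695892-86695940, minus strand): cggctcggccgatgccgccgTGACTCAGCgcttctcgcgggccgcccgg

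The match began 240 bases before the start of Nfe2l2, 134 before Gclm, 133 before Prdx1, 92 before Txnrd1, 79 before Mt2, 56 before Mgst1 and Sod1, 42 before Gstm5 and 6 before Me1, and lay 28 bases past the start of Srxn1. Prdx1, Mt2 and Me1 carried the form that overlaps the AP-1 letters. Of the 10 genes shown, 5 had an OPP mean above and 5 below the control mean, with a median log2 change of −0.05 and a range of −0.51 to 0.22. The 23 tested genes with a window and no match had a median log2 change of 0.02. Only the 300 bases of each window were searched, so a gene without a match there may hold one elsewhere. The matches are of letters in the reference genome, and no binding was measured in the tumours.

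Quinone, haem and iron genes had 0 of 4 tested members at an unadjusted p under 0.05 in limma, with 1 mean above and 3 below that of the control group. Nqo1, the quinone reductase most used as a readout of Nrf2, was not above background on any of the 7 arrays with either of its 2 probes, and it was not tested. Hmox1, which opens the haem ring, gave 1119.7, 1013, 907 and 950 in the control group and 993, 993 and 1609.8 in the OPP group. OPP replicates 1 and 2 lay within the control range and OPP replicate 3 lay far above it. The log2 change of 0.23 ± 0.19 (SE) had an adjusted p of 0.722 from limma and an exact permutation p of 0.457, and without OPP replicate 3 it was −0.00182.

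Blvrb, a flavin and biliverdin reductase found at high level in red cells, gave 120.4, 272, 184 and 207 in the control group and 145, 154 and 141 in the OPP group. The OPP arrays lay close together between control replicate 1 and the other controls. The groups differed by a log2 change of −0.36 ± 0.25 (SE), with an adjusted p of 0.670 from limma and an exact permutation p of 0.286. Without control replicate 1 the log2 change was −0.57, with an unadjusted p of 0.0101, an adjusted p of 0.293 from limma and no overlap between the groups, and without control replicate 2 it was −0.18, with an unadjusted p of 0.414. From the lowest to the highest array, Blvrb kept the order of the summed macrophage markers except that OPP replicates 1 and 2 changed places. The summed red cell markers, made up mostly of Hba-a1, did not follow it, being lowest, at 2252, on control replicate 2, where Blvrb was highest. The part of those cells in the Blvrb signal was not tested.

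The ferritin subunits, which store iron, were highest on control arrays, with overlap. Fth1, the heavy subunit, ran from 4129 to 7327 in the control group and from 4646 to 6441 in the OPP group. From the lowest to the highest array, Fth1 kept the order of the summed macrophage markers except that OPP replicate 1 and control replicate 3 changed places. The summed T and NK cell markers had the order of the macrophage markers with control replicate 1 and OPP replicate 3 exchanged. The part of either cell type in the ferritin signal was not tested. Ftl1, the light subunit, ran from 21850.2 to 28005 in the control group and from 20975 to 25819 in the OPP group. Ferritin genes have many processed copies in the genome, and a probe may read more than the named gene.

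Glutathione synthesis and reduction had 0 of 5 genes at an unadjusted p under 0.05 in limma. The catalytic and modifier subunits of glutamate-cysteine ligase carry out the limiting step. Gclc, the catalytic subunit, was dim at 39, 73.1, 46.2 and 37.7 in the control group and 45.9, 39.4 and 30.6 in the OPP group, with a log2 change of −0.31 ± 0.25 (SE) and an adjusted p from limma of 0.725. Control replicate 2 stood above the other 6 arrays, which overlapped, and without it the log2 change was −0.10. Gclm, the modifier, gave 334, 365, 355 and 463 in the control group and 360.1, 340.1 and 309 in the OPP group, with a log2 change of −0.16 ± 0.13 (SE) and an adjusted p from limma of 0.721. OPP replicate 3 was the lowest and control replicate 4 the highest, and without the latter the log2 change was −0.07.

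Slc7a11, the cystine transporter that feeds glutathione synthesis, gave 50.6, 51.1, 32 and 47.3 in the control group and 64.8, 44.5 and 36.3 in the OPP group. The OPP arrays spread over the whole range of the controls and past its upper end. The log2 change of 0.08 ± 0.24 (SE) had an adjusted p from limma of 0.924, and it turned to −0.07 when control replicate 3 was left out and to −0.15 when OPP replicate 1 was. Gss, glutathione synthetase, was highest on OPP replicate 3 with both of its probes, at 589 and 454, while the other arrays lay between 272 and 376 for the brighter probe. Its log2 change was 0.23 with the brighter and 0.36 with the dimmer probe, at adjusted p-values of 0.795 and 0.738 from limma. Gsr, which reduces oxidised glutathione, was low on control replicate 1 and OPP replicate 3, at 393 and 401, and lay between 536 and 603 on the other arrays.

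By their brightest probes, the 3 tested thioredoxin genes had log2 changes between −0.02 and 0.06, and 0 of them passed an unadjusted p of 0.05 in limma. Txn1, cytosolic thioredoxin, was not above background on any array with either of its 2 probes, which read below 0 throughout. Whether these probes detect the transcript was not tested. Txnrd1, the selenoprotein that reduces thioredoxin, gave 578, 720.4, 776 and 672 in the control group and 671, 667 and 723 in the OPP group, with a log2 change of 0.01 ± 0.12 (SE) and an adjusted p of 0.986 from limma. All 3 OPP arrays lay within the control range. Srxn1, which restores overoxidised peroxiredoxins, gave 49.8, 83.8, 96.4 and 94.7 in the control group and 111, 81.8 and 60.8 in the OPP group. Its log2 change was 0.06 ± 0.29 (SE), with an adjusted p of 0.952 from limma. The dimmer probes of Srxn1 gave 0.318 and 0.322, with adjusted p-values of 0.832 and 0.838 from limma. Both were above background on 3 of 4 control and 3 of 3 OPP arrays, and so entered the test only through the OPP group. On control replicate 1 they were 13.2 and 18.6, not above background. The size of their difference was partly set by the way they entered. Control replicate 1 was the lowest array with each of the 3 probes of Srxn1. Txn2, the mitochondrial thioredoxin, ran from 333 to 431 in the control group and from 345 to 407 in the OPP group.

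Of the peroxiredoxins other than Prdx3, 0 of 3 tested passed an unadjusted p of 0.05 in limma. Prdx1, the abundant cytosolic form, ran from 16729.6 to 19429 in the control group and from 15721 to 17645 in the OPP group, a log2 change of −0.13 with an adjusted p of 0.700 from limma. Prdx4, which works in the endoplasmic reticulum, ran from 10257 to 11089.6 in the control group and from 10656 to 11403 in the OPP group. It had the smallest spread of the 38 genes, with an SD of log2 signal of 0.05 over the 7 arrays. Prdx2 ran from 1934 to 2209 and from 1813 to 2330.4, a log2 change of 0.00436.

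Superoxide dismutases, catalase and glutathione peroxidases had 0 of 5 tested genes at an unadjusted p under 0.05 in limma, with 4 means above and 1 below that of the control group. Gpx1, the main cytosolic glutathione peroxidase, gave 7448, 8349, 8295 and 7938 in the control group and 8143, 8891 and 8464 in the OPP group. OPP replicates 2 and 3 were above every control and OPP replicate 1 was not. Its log2 change was 0.09 ± 0.09 (SE), with an adjusted p of 0.779 from limma. Log2 changes were −0.11 for Sod1, the cytosolic copper-zinc enzyme, 0.02 for Sod2, the mitochondrial manganese enzyme, 0.21 for Gpx3, a secreted peroxidase, and 0.07 for Gpx4, which reduces lipid peroxides. Catalase was above background on 3 of 4 control and 2 of 3 OPP arrays, and Sod3, the extracellular dismutase, on 1 of 4 and 1 of 3, so neither was tested.

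**Figure D2:**
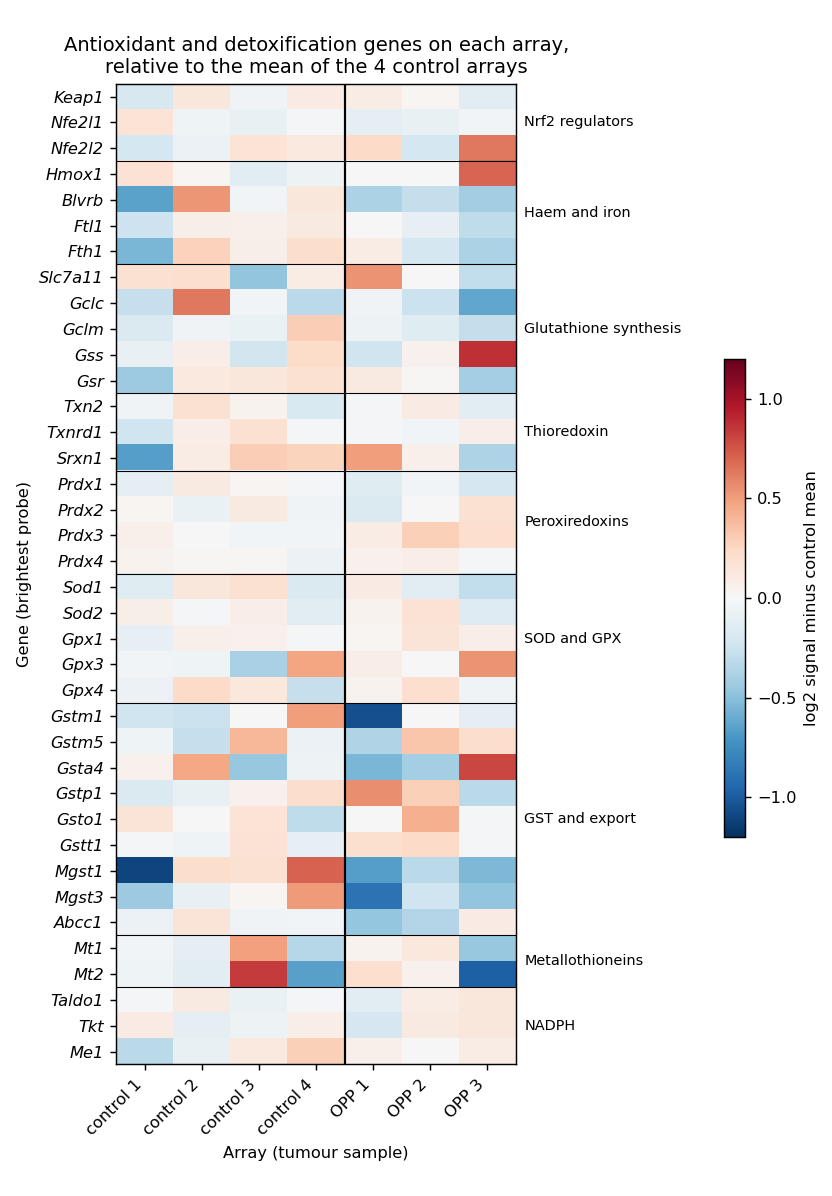
Log2 signal of each tested gene (rows, by role) on each of the 7 arrays (columns), as the difference from that gene's mean over the 4 control arrays. Red is above and blue below that control mean. OPP replicate 3 is highest for 8 genes and lowest for 9. Control replicate 1 is highest for 1 gene and lowest for 10, and OPP replicate 1 is highest for 3 and lowest for 10.

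The glutathione transferases and the exporter Abcc1 had 0 of 9 genes at an unadjusted p under 0.05 in limma, with 4 means above and 5 below that of the control group. Mgst3 gave 120.6, 153, 165 and 231 in the control group and 88.2, 138 and 117 in the OPP group. OPP replicates 1 and 3 were below every control and OPP replicate 2 was not. The log2 change was −0.53 ± 0.24 (SE), with an adjusted p of 0.536 from limma and an exact permutation p of 0.114, and the dimmer probe gave −0.41. Leaving out control replicate 1 gave −0.68 and leaving out OPP replicate 2 gave −0.68 again, at unadjusted p-values of 0.0208 and 0.0408 from limma, while leaving out OPP replicate 1 gave −0.36, at 0.206.

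Mgst1, another microsomal transferase, was 171 on control replicate 1, 424, 415 and 598 on control replicates 2 to 4 and 231, 293 and 251 in the OPP group. Control replicate 1 was the lowest of the 7 arrays and the other controls were the highest. The log2 change was −0.51 ± 0.39 (SE) with all arrays, with an adjusted p from limma of 0.700, and −0.88 without control replicate 1, with an unadjusted p of 0.00208 and an adjusted p from limma of 0.202. It was −0.27 without control replicate 4, with an unadjusted p of 0.474. Skeletal muscle and adipocyte markers were also lower on control replicate 1, at sums of 7250 and 954, than on the other controls, at 10484 to 32096 and 1677 to 3410. The same held for the summed macrophage markers, at 5210 against 9017 to 11442, and for the summed T and NK cell markers, at 112 against 1390 to 1760. The macrophage marker Mrc1 went the other way, at 296.5 on control replicate 1 against 142 to 291.9 on the other controls. The part of any of these cell types in the Mgst1 signal was not tested.

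Gstp1, an abundant cytosolic transferase, was read by 3 probes. The brightest gave 4978, 5292, 5815 and 6520.2 in the control group and 8267, 6842 and 4489 in the OPP group, with a log2 change of 0.17 and an adjusted p from limma of 0.809. OPP replicates 1 and 2 were the highest of the 7 arrays and OPP replicate 3 the lowest. The other two probes gave log2 changes of 0.24 and 0.21, at unadjusted p-values of 0.0521 and 0.0340 and adjusted p-values of 0.532 and 0.499 from limma, and the last was 3132 to 3463 in the control group and 3795 to 3808 in the OPP group, without overlap. Without OPP replicate 3 the brightest probe gave a log2 change of 0.42 at an unadjusted p of 0.0286 from limma, and without OPP replicate 1 it gave −0.02. Gstp1 has a near-identical neighbour, Gstp2, and the probes may read either copy. The number in the name of the brightest probe differs from that in the names of the other 2. The gene counts and the figures rest on the brightest probe. Which copy each probe reads was not tested.

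Abcc1, which exports glutathione conjugates, gave 79.6, 93, 81.2 and 81.7 in the control group and 60.7, 65.6 and 89.8 in the OPP group. OPP replicates 1 and 2 were below every control and OPP replicate 3 was within the control range. For Abcc1 the log2 change was −0.24 ± 0.15 (SE), with an adjusted p of 0.644 from limma, and −0.41 without OPP replicate 3, with an unadjusted p of 0.00913 and an adjusted p of 0.550 from limma. Without OPP replicate 1 it was −0.13, with an unadjusted p of 0.446. The remaining transferases overlapped, with log2 changes of −0.39 for Gstm1, 0.06 for Gstm5, −0.05 for Gsta4, 0.14 for Gsto1 and 0.13 for Gstt1. Gstm1 ran from −0.58 without OPP replicate 2 to −0.05 without OPP replicate 1. The Gstm genes are close copies of each other, so that a probe may read more than its named gene.

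**Figure D3:**
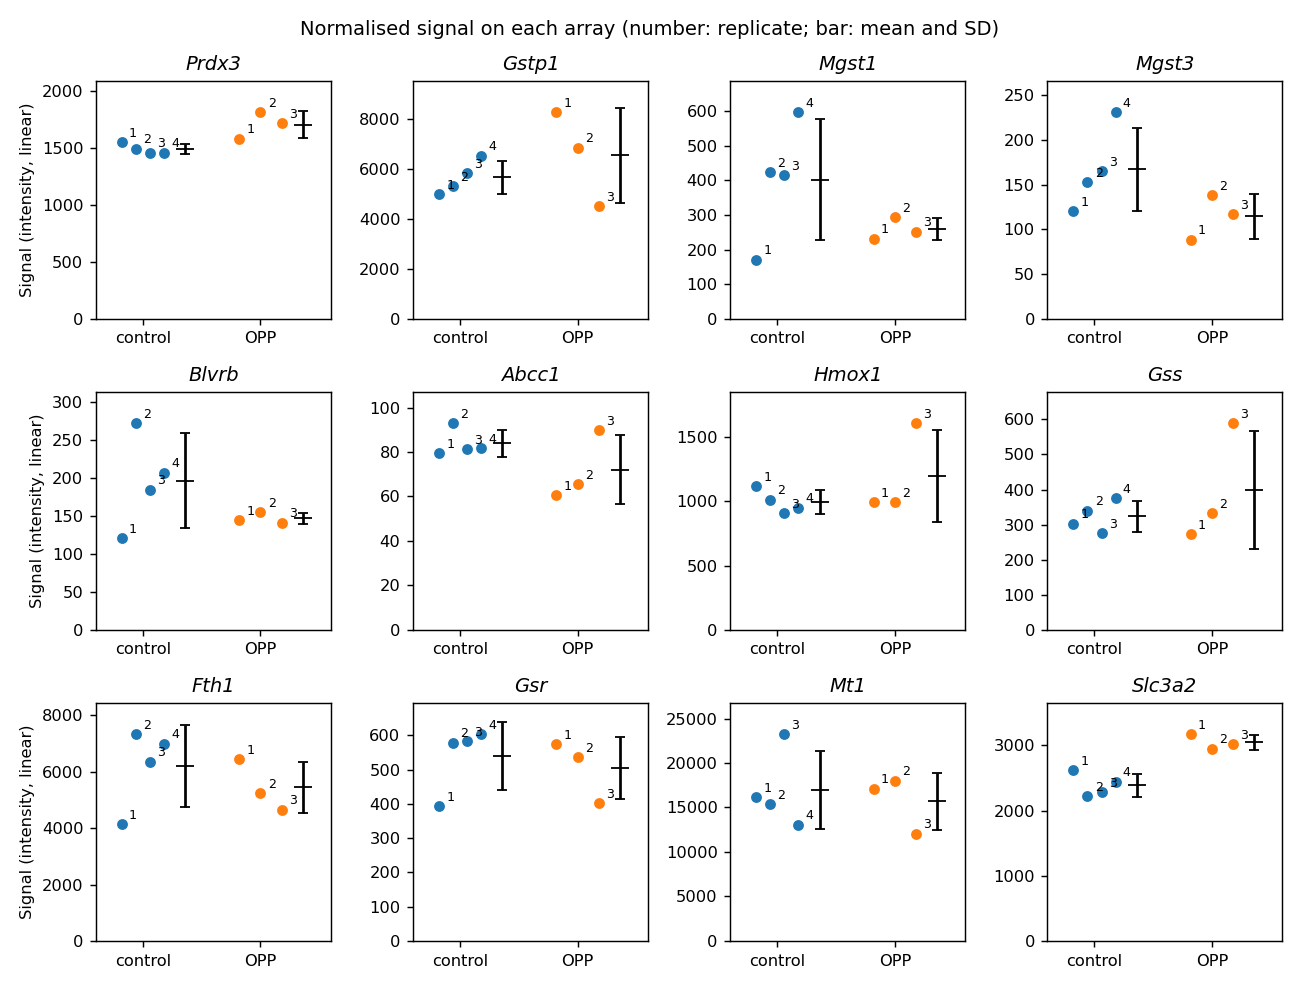
Normalised signal (linear intensity, axes from 0) of 11 antioxidant genes and of Slc3a2 on each array; points are single arrays numbered by replicate, and bars give the group mean and SD for 4 control and 3 OPP arrays. The groups do not overlap for Prdx3 and Slc3a2, and Hmox1 and Gss are highest on OPP replicate 3.

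The metallothioneins, which bind zinc and copper, had 0 of 2 tested genes at an unadjusted p under 0.05 in limma. The genes of NADPH supply and the pentose phosphate pathway had 0 of 3. Of the latter only Me1 encodes an enzyme that itself makes NADPH, since no signal of G6pdx or Pgd was analysed. Mt2 gave 1503, 1427, 2800.3 and 992 in the control group and 1795, 1619.7 and 791 in the OPP group. The highest was control replicate 3 and the lowest OPP replicate 3, as they were for Mt1, which ran from 13051 to 23230 in the control group and from 12061 to 18016 in the OPP group. The log2 change was −0.24 ± 0.40 (SE) for Mt2 and −0.10 for Mt1, with adjusted p-values of 0.855 and 0.902 from limma. Me1, malic enzyme, gave 763, 900.1, 1038 and 1163 in the control group and 993, 955 and 1014 in the OPP group, with a log2 change of 0.05 ± 0.15 (SE) and an adjusted p of 0.929 from limma. The OPP arrays lay within the control range. Taldo1 and Tkt, the transaldolase and transketolase of the pentose phosphate pathway, had log2 changes of 0.03 and 0.02.

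The genes were also followed by array. OPP replicate 3 was the highest array for 8 of the 38 genes, among them Hmox1, Gss, Nfe2l2 and Gpx3, and the lowest for 9, among them Gclm, Gclc, Prdx1, Ftl1, Mt1 and Mt2. The same array was highest for 21% and lowest for 18.8% of all tested probes, against 21.1% and 23.7% of these genes. Control replicate 1 was the lowest array for 10 genes, or 26.3%, beside 16.6% of all probes. They were Nfe2l2, Keap1, Blvrb, Fth1, Gsr, Txnrd1, Srxn1, Gpx1, Mgst1 and Me1. OPP replicate 1 was also the lowest array for 10 genes, or 26.3%, beside 15.2% of all probes.

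Leaving out control replicate 1 brought 3 genes past an unadjusted p of 0.05 in limma, all lower in the OPP group, namely Blvrb, Mgst1 and Mgst3, where 12.1% of all probes passed and 7% were lower. Without that array 7 genes did not overlap, or Prdx3 above and Blvrb, Ftl1, Gsr, Prdx1, Mgst1 and Mgst3 below, where 18.7% of all probes did not overlap. Leaving out OPP replicate 3 brought 2 genes past the threshold, Gstp1 higher and Abcc1 lower, where 7.97% of all probes passed, 4.61% higher and 3.36% lower. Without both arrays, a choice made after the values were seen, 4 genes passed, namely Blvrb, Mgst1, Mgst3 and Abcc1, all lower, where 10.2% of all probes passed and 6.12% were lower; the share of all probes without overlap was then 27.9%. After adjustment in limma, 0 of the genes passed 0.05 in these 3 fits. The share of all probes without overlap was 17.5% without OPP replicate 3 alone, beside 6 of the genes.

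**Figure D4:**
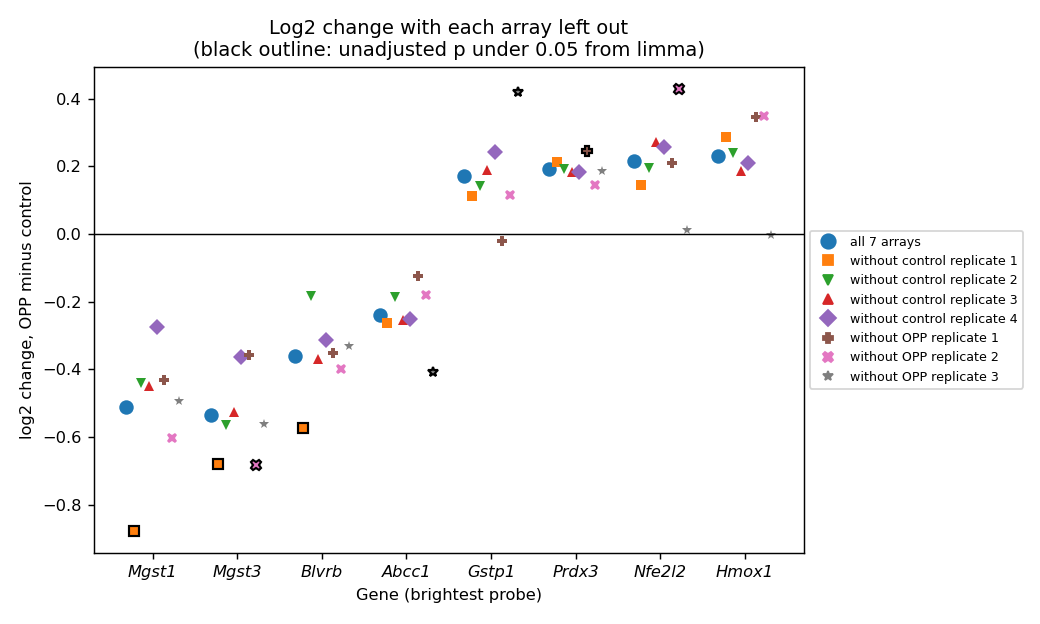
Log2 change, OPP minus control, of 8 genes with all 7 arrays and with each array left out in turn; a black outline marks an unadjusted p under 0.05 from limma. Mgst1 moves from −0.51 to −0.88 without control replicate 1, and Hmox1 from 0.23 to −0.00182 without OPP replicate 3.

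A wider list of 83 genes of the same pathways, none of them among the 46, had 71 genes with a named probe and 52 tested. Of these, limma gave 3 higher and 0 lower genes at an unadjusted p under 0.05, or 5.77% beside 9.36% of all probes, and 0 passed after adjustment. Slc3a2, the heavy chain that carries Slc7a11 and other amino acid transporters to the membrane, gave 2616, 2217, 2278 and 2443 in the control group and 3169.7, 2948 and 3015 in the OPP group. Every OPP array was above every control array. Its log2 change was 0.35 ± 0.09 (SE), with an unadjusted p of 0.00662 and an adjusted p of 0.369 from limma.

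Cbr1, a carbonyl reductase that also reduces quinones, gave 1491, 1539.9, 1537 and 1389.9 in the control group and 1699, 1766 and 1776 in the OPP group. The groups did not overlap, and the log2 change was 0.23 ± 0.08 (SE), with an adjusted p of 0.485 from limma. Cth, which makes cysteine from cystathionine, gave 611, 486, 555 and 451 in the control group and 785, 563 and 708 in the OPP group. OPP replicate 2 fell within the control range, and the log2 change was 0.38 ± 0.16 (SE), with an adjusted p of 0.511 from limma. Mafg, a small Maf partner of Nrf2, and Glrx3, an iron-sulphur glutaredoxin, were lower in the OPP group without overlap, each with a log2 change of −0.19, at adjusted p-values of 0.557 and 0.536 from limma. The groups did not overlap for 7.69% of the tested genes of the wider list, beside 9.7% of all probes.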

How the data were processed

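Tumour RNA was measured on Illumina MouseRef-8 arrays, single-colour BeadChips. The authors deposited linear intensity values, read with BeadStudio 1.5.1.3 per the labels, background-subtracted and normalised between arrays by the rank invariant method. A second table, whose 14 columns hold signals before normalisation and their detection values, was not used here, since no column could be tied to a sample. The genome build of the probes is not given in the sources used here.

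Values under 10 were set to 10 and log2 was taken. A probe was tested if its signal was above 2.33 SD of the noise on all arrays of either group, the noise being taken from that array's negative values. This limit was 20.6 to 26.7, and 44.4% to 47% of probes lay above it. The number of arrays limits the precision. Groups were compared with limma 3.58.1 in R 4.3.3, two-sided, with Benjamini-Hochberg adjustment over 10371 probes. The Illumina error model of the study was not held. A gene was given by its brightest probe. For single genes an exact permutation p was taken over the 35 splits of the arrays, with the smaller tail doubled. The limma step was tested on simulated data.

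The genes and lists were chosen with earlier results of these data known. By rule, full values are given for genes without overlap or past an unadjusted p of 0.05, the core of the Nrf2 pathway, the smallest p of each role and, in the wider list, those past 0.05. Mgst1, Gstp1, Abcc1, Gss, Gsr, the ferritins, Mt1, Mafg, Glrx3 and the genes plotted by array beyond that rule were picked after their values were seen. Promoters were RefSeq sequences. Python 3.11.15, pandas 2.3.3 and matplotlib 3.10.9 were used.

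Alternatives were each array left out in turn, a block on replicate number, quantile normalisation or median scaling, averaged probes of a gene, a floor of 50, testing every probe or only those above the limit on all 7 arrays, array weights, and a robust prior with an intensity trend.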

Additional observations from a re-analysis of the deposited data

Results flagged for a closer look

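In 4 of the 38 control groups of 4 arrays, a single array lay far from the other 3 by Dixon's criterion, which chance meets in about 1 in 20 groups. They were Ftl1, with 21850.2 on control replicate 1, Gsr, with 392.6 on control replicate 1, Slc7a11, with 32 on control replicate 3, and Abcc1, with 93 on control replicate 2. Gsr was also low on OPP replicate 3, at 401. OPP groups of 3 arrays were not examined in this way.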

How the results depend on the processing

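The count of antioxidant, glutathione and detoxification genes at an unadjusted p under 0.05 in limma, 0 with all arrays, was 0 under median scaling, detection on all 7 arrays and averaged probes. It was 1 with quantile normalisation (Mgst3), a floor of 50 (Prdx3), no detection filter (Prdx3) and array weights (Prdx3), 2 with the trended and robust prior (Mgst3 and Prdx3), 0 to 3 with each array left out and 4 without control replicate 1 and OPP replicate 3. The share of all probes was 9.32% with quantile normalisation, 9.51% with the floor of 50 and 4.99% with no detection filter. Array weights gave 10.6% of all probes and the trended and robust prior 9.23%. Over all probes 6.94% to 12.1% passed with an array left out and 10.2% without both. Leaving out an array gave 1 to 7 genes without overlap, beside 12.7% to 20.1% of all probes, and leaving out both gave 13, beside 27.9%. Median scaling gave 0 genes without overlap. In the wider list, where 3 genes passed 0.05 in the main fit, 2 did so with quantile normalisation and 2 with averaged probes. The other processing settings gave 3 or 4. With an array left out 2 to 5 genes of that list passed, and 6 did so without both. The replicate block gave 1 gene (Mgst3) and moved the count over all probes from 971 to 684. Arrays of the same number correlated at −0.275, 0.0778 and −0.165 in their deviations. Control replicate 1 and OPP replicate 3 correlated most highly, at 0.481. With so few arrays these values cannot settle whether the numbers pair the samples. Log2 changes close to 0 changed sign. Keap1 was 0.0028 and Txn2 0.0068 with quantile normalisation, Txnrd1 −0.031 and Prdx2 −0.0045 with array weights, and Keap1 0.024, Prdx2 −0.011, Sod2 −0.024 and Gpx4 −0.026 with the block. With each array or both of those named left out, the log2 change ran from −0.075 to 0.054 for Keap1, −0.060 to 0.429 for Nfe2l2, −0.00182 to 0.347 for Hmox1, −0.146 to 0.334 for Slc7a11, −0.125 to 0.461 for Gss, −0.239 to 0.062 for Gsr, −0.079 to 0.044 for Txn2, −0.108 to 0.071 for Txnrd1, −0.156 to 0.280 for Srxn1, −0.086 to 0.095 for Prdx2, −0.056 to 0.132 for Sod2, −0.026 to 0.143 for Gpx4, −0.074 to 0.273 for Gstm5, −0.476 to 0.195 for Gsta4, −0.021 to 0.420 for Gstp1, −0.00611 to 0.268 for Gsto1, −0.210 to 0.084 for Mt1, −0.465 to 0.126 for Mt2, −0.024 to 0.115 for Taldo1, −0.043 to 0.123 for Tkt and −0.078 to 0.144 for Me1. The cause of these changes was not tested. Nqo1, Txn1, Cat and Sod3 were limited by signal over background, and dim genes such as Gclc and Slc7a11 lie near it.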

Other observations

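Slc40a1, which encodes the iron exporter ferroportin, varied most widely among the iron genes of the wider list and was picked after its values were seen. It gave 602, 113, 104 and 148 in the control group and 509.8, 252 and 834 in the OPP group, in order of replicate number. Control replicate 1 lay among the OPP arrays and apart from the other controls. The log2 change was 1.40 ± 0.67 (SE), with an adjusted p of 0.556 from limma.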
